A study of Mus musculus with 6 samples.

Results

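The genes described here are 6 acyl-CoA synthetases (*Acsl1*, *Acsl3*, *Acsl4*, *Acsl5*, *Acsl6* and *Acsbg1*) and 3 fatty-acid-binding proteins of the brain (*Fabp3*, *Fabp5* and *Fabp7*). They were chosen by name, all 9 were found among the 55357 genes of the count files, and all 9 were among the 21876 genes tested, those that reached 6 reads in 1 or more libraries. The data were 6 RNA-seq libraries of poly(A) RNA from primary neuronal cultures of wild type mice, which the study prepared from the cortex and hippocampus of C57BL/6N embryos. Lentivirus was added at DIV4 (days in vitro), carrying a scrambled control shRNA in 3 cultures (shCtrl) and an shRNA against *Pla2g4e* in the other 3 (sh*Pla2g4e*), and RNA was taken at DIV14. Both groups carried a lentivirus, the knockdown rests on a single shRNA sequence (sh2), and nothing in the labels says whether the 3 cultures of a group came from separate preparations, so that the spread between them may be technical. The comparison asks what silencing of *Pla2g4e* before its peak of expression changes in the transcriptome of developing neurons.

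For most of its metabolic uses, a free long-chain fatty acid is first joined to coenzyme A by an acyl-CoA synthetase. The acyl-CoA is then used to build phospholipids, triglycerides and cholesterol esters, to acylate proteins or to feed oxidation, and the synthetases differ in their preferred fatty acids and in the membranes that hold them. Fatty-acid-binding proteins are small cytosolic carriers that move fatty acids between membranes, enzymes and nuclear receptors. PLA2G4E moves a fatty acyl chain from one phospholipid to another to form N-acyl-phosphatidylethanolamines, and the fatty acids of phospholipids are built in as acyl-CoA.

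The shRNA sequence and its matches in the 9 genes are shown first, because a short match to bases 2 to 8 of an shRNA's guide strand (the seed) can lower other mRNAs. The target and the guide strand are those the study lists, with the seed or the sequence that pairs with it in capitals.
sh2 target: ggaagatggtgGTGGCCAa
sh2 guide strand: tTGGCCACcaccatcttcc
The letters GTGGCCA were searched for, on the strand of the mRNA alone, in the transcripts of GENCODE vM21 (GRCm38). Of the 15704 tested genes with an annotated 3′ UTR, 14.6% held them in at least 1 such region. The share was 44.2% of the 856 such genes called lower in sh*Pla2g4e* cultures and 7.72% of the 479 called higher, and the part of the match in these calls was not tested. Among the 9 genes, *Acsl3*, *Acsl6* and *Fabp5* held them in the 3′ UTR of the principal transcript. *Acsl3*, *Acsl4* and *Acsl6* held them once each in the coding sequence. The sites with 10 bases on either side are the following, with the match in capitals.
Acsl3, 3′ UTR: cagagcagcgGTGGCCAtgggtgtggt
Acsl6, first site of the 3′ UTR: tatgatcaggGTGGCCAggacaaggaa
Acsl6, second site of the 3′ UTR: tcctgatccaGTGGCCAccatatactg
Fabp5, 3′ UTR: acttgtagacGTGGCCAgcttcttttg
Acsl3, coding sequence: attcttattgGTGGCCAaaatgtgaca
Acsl4, coding sequence: attgtgatcgGTGGCCAgaatatctcc
Acsl6, coding sequence: ctaccaagagGTGGCCAaaagggctga
*Acsl1*, *Acsl5*, *Acsbg1*, *Fabp3* and *Fabp7* held no match in the 3′ UTR or coding sequence of any annotated coding transcript. The longest run of bases that any of the 9 genes shared with the whole target was 10 of 19, in *Acsl3* and *Acsl6*.

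The files held raw read counts per gene, and between 17054717 and 23570180 reads were counted per library. Values are given as CPM, counts scaled to a common library size with the TMM factors of edgeR, as the mean ± SD of 3 libraries, and the comparison used the quasi-likelihood test of edgeR at the study's threshold of an adjusted p of 0.01. *Pla2g4e* stood at 38.0, 35.1 and 35.4 CPM in control replicates 1 to 3 and at 21.8, 14.1 and 18.7 CPM after knockdown, so that all 3 knockdown libraries lay below all controls, as labelled (log2 fold change −0.99, adjusted p = 1.24e-04). The 10 neuron markers checked (among them *Map2*, *Snap25* and *Rbfox3*) were all detected, with a summed level of 5427 to 6591 CPM. Of these, 3 were called lower and 1 higher in sh*Pla2g4e* cultures, or 4 and 2 with the replicate number as a block. The shares of all genes called in either direction were 6.49% and, with the block, 15.5%. Markers of other cells were present too, and sums over lists of different genes do not rank the cell types. The 15 astrocyte markers, given below with *Acsbg1* and *Fabp7*, summed to between 2488 and 5126 CPM. The 10 markers of the oligodendrocyte lineage summed to 572 to 723.6 CPM. The 10 of microglia, of which 8 were tested, summed to 3.70 to 11.99 CPM. The 9 of radial glia and dividing cells summed to 333.2 to 523.4 CPM, and of these *Top2a* passed the threshold, downward. With the block *Mki67* and *Olig2*, a marker of the oligodendrocyte lineage, also passed downward. Of 9 endothelial and mural markers, with a summed level of 27.75 to 77.4 CPM, 8 were tested and none passed without the block, and *Kdr* passed upward with it. Deviations of libraries of the same replicate number correlated at 0.39 and 0.46 for numbers 1 and 3. For number 2 the value was 0.19, near the 0.11 of shCtrl 1 with sh*Pla2g4e* 2, a pair of unlike number. The calls of a fit with the number as a block are given beside those without it where they differ. Standard errors and p-values of edgeR draw on the spread of many genes, so they do not measure the spread of 1 gene alone.

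None of the 9 genes passed the threshold in edgeR, where 6.49% of all genes tested did. At an unadjusted p of 0.05 there were 4, *Acsl3* with a higher value and *Acsl5*, *Acsbg1* and *Fabp3* with a lower one in sh*Pla2g4e* cultures, beside 25.7% of all genes, and none passed in limma after voom or in DESeq2. At an adjusted p of 0.05 *Acsl5* passed, beside 12.9% of all genes, and with no filter on reads *Acsl5* and *Acsbg1* passed at 0.01, beside 7.30% of all genes. With the replicate number as a block 3 passed, against 15.5% of all genes, *Acsl3* upward and *Acsl5* and *Acsbg1* downward. The groups of libraries did not overlap for 3 of the 9 (*Acsl3*, *Acsl5* and *Fabp5*), against 30.0% of all genes and 40.0% of those at a mean log2 CPM of 3 or more, a level that all 9 reach and at which 10.9% passed the threshold. The median log2 fold change was −0.13 over the 9 genes and 0.029 over all genes tested, or −0.024 over those at a mean log2 CPM of 3 or more. The genes had 489 to 6888 reads per library, which puts the counting error between 1.21% and 4.52% of a value, below the coefficient of variation of the libraries of a group (4.90% to 34.9%).

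**Figure D1:**
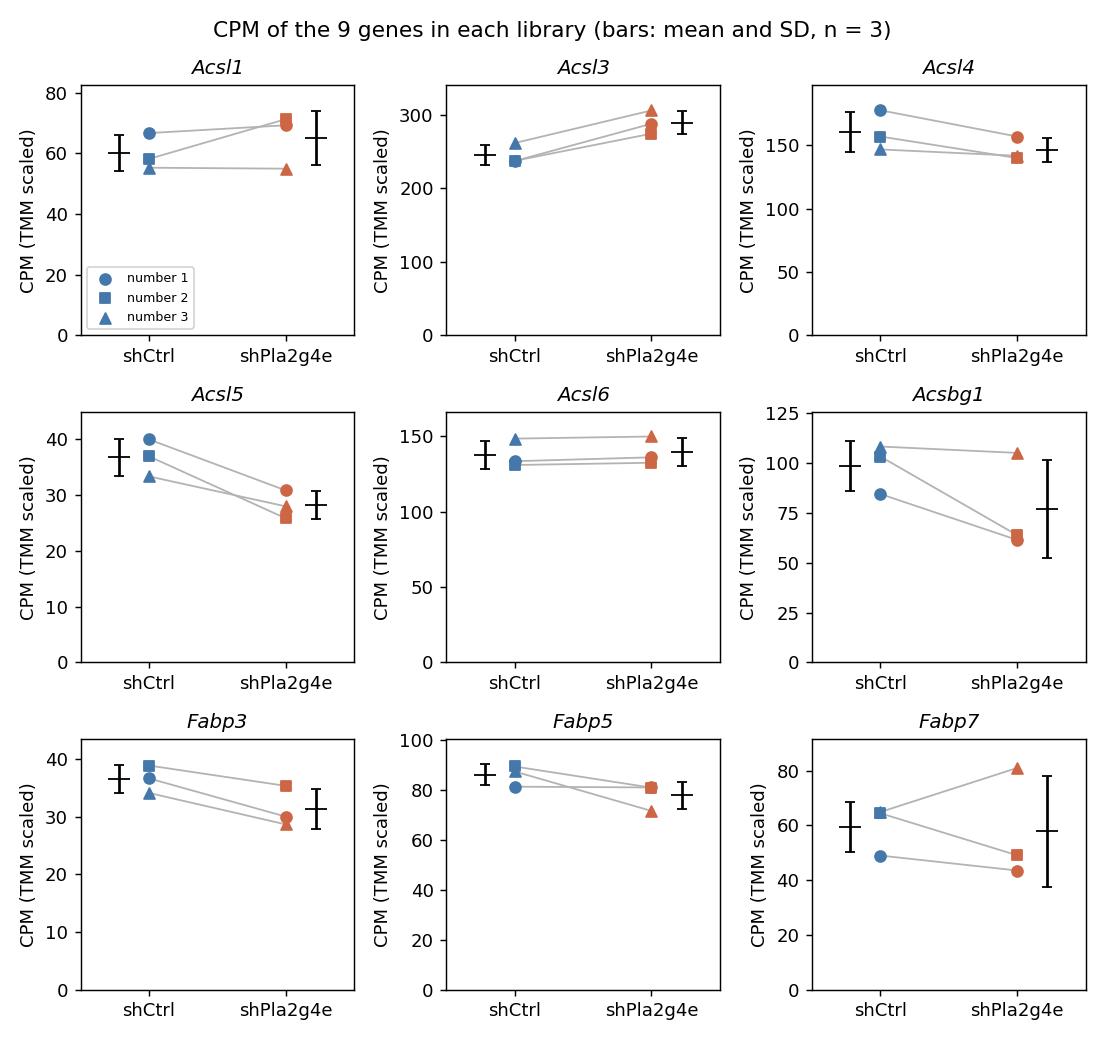
CPM of each gene (vertical axes, from 0) in the 3 shCtrl libraries (blue) and the 3 shPla2g4e libraries (orange), with lines joining libraries of the same number and bars for the mean and SD. All 3 shPla2g4e libraries lie above all 3 shCtrl libraries for Acsl3 and below them for Acsl5, while Acsbg1 and Fabp7 spread most within the shPla2g4e group.

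*Acsl3* (ENSMUSG00000032883, chromosome 1, 78635542 to 78685460 of GRCm39, plus strand) encodes a synthetase of the endoplasmic reticulum and of lipid droplets. It stood at 237.3, 237.6 and 261.8 CPM in control replicates 1 to 3 and at 288.1, 274.6 and 306.2 CPM after knockdown. The lowest sh*Pla2g4e* library was above the highest shCtrl library, and replicate 3 was the highest of both groups. Group means were 245.6 ± 14.1 and 289.6 ± 15.9 CPM (SD, n = 3 each). The log2 fold change was 0.24 with a standard error of 0.080 (edgeR, adjusted p = 0.0625), an excess of 17.9% that did not pass the threshold. It passed once the number was a block, at the same 0.24 on the log2 scale and a standard error of 0.062 (edgeR, adjusted p = 0.00229). Within replicate numbers 1, 2 and 3 the sh*Pla2g4e* library was higher by 21.4%, 15.6% and 17.0%. Without number 1 or without number 2 the blocked adjusted p was above 0.01, with 0.0404 as the highest value in edgeR. *Acsl3* holds the seed match in its 3′ UTR and in its coding sequence. About 5.6% of its exon bases overlap *Utp14b* on the same strand, and the default of featureCounts leaves out reads that touch both genes.

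*Acsl5* (ENSMUSG00000024981, chromosome 19, 55240370 to 55286152 on the plus strand) encodes a synthetase of the endoplasmic reticulum and the outer mitochondrial membrane, best known from the intestine. It stood at 39.9, 36.9 and 33.3 CPM in control replicates 1 to 3 and at 30.8, 25.8 and 27.9 CPM after knockdown. The groups did not overlap, and the lowest shCtrl library was replicate 3. Group means were 36.7 ± 3.32 and 28.2 ± 2.50 CPM (SD, n = 3 each), which edgeR fitted as a log2 fold change of −0.38 with a standard error of 0.10 (adjusted p = 0.0228), a difference of −23.2%. This was the smallest adjusted p of the 9 genes. Blocked by number, edgeR gave −0.38 on the log2 scale (adjusted p = 8.02e-04), and the sh*Pla2g4e* library was the lower one in each of the 3 numbers. That call was lost in DESeq2 with the block, when scaling used library size alone, and without number 1 or number 2. About 8.31% of its exon bases overlap *Zdhhc6* on the other strand, and since the counting used no strand option, reads there could not be told apart by strand and those touching both genes were left out. *Acsl5* holds no seed match.

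*Acsl4* (ENSMUSG00000031278, chromosome X, 141100989 to 141173531 on the minus strand), a synthetase with a preference for arachidonic acid, stood at 177.6, 156.9 and 146.7 CPM in control replicates 1 to 3 and at 156.9, 139.9 and 141.7 CPM after knockdown. The groups overlapped, and the difference, a log2 fold change of −0.13 (95% confidence interval −0.32 to 0.052), did not pass the threshold with or without the block, and it ran from −0.19 to −0.054 when 1 library was left out. *Acsl6* (ENSMUSG00000020333, chromosome 11, 54194624 to 54255582 on the plus strand), the synthetase that is known for enriching the brain in docosahexaenoic acid, stood at 133.4, 130.9 and 148.4 CPM in control replicates 1 to 3 and at 136.0, 132.4 and 149.8 CPM after knockdown. Libraries of the same number lay within 1.95% of each other, and replicate 3 was the highest in both groups. The log2 fold change was 0.018 with a confidence interval of −0.16 to 0.19, so that a change of more than 0.19 on the log2 scale in either direction lay outside that interval. *Acsl6* has the most seed matches of the 9 genes, 2 in the 3′ UTR and 1 in the coding sequence.

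*Acsl1* (ENSMUSG00000018796, chromosome 8, 46924074 to 46989088 on the plus strand), the main synthetase of liver, fat and heart, stood at 66.7, 58.2 and 55.3 CPM in control replicates 1 to 3 and at 69.3, 71.3 and 54.96 CPM after knockdown. Replicate 3 was the lowest in both groups and the groups overlapped. The log2 fold change was 0.12 (confidence interval −0.10 to 0.34, adjusted p = 0.53 in edgeR), and it ran from 0.052 to 0.23 when 1 library was left out. About 9.91% of the exon bases of *Acsl1* overlap *Gm45244* on the other strand.

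**Figure D2:**
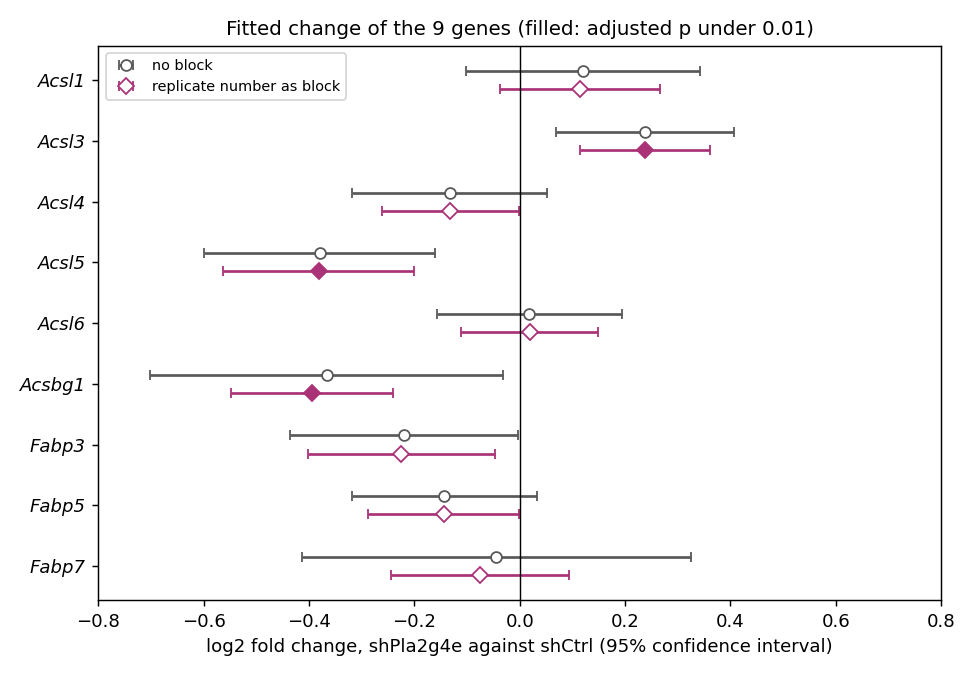
Log2 fold change of each gene (horizontal axis, shPla2g4e against shCtrl, bars for the 95% confidence interval) from edgeR without a block (grey circles) and with the replicate number as a block (purple diamonds), filled where the adjusted p was under 0.01. Only the blocked values of Acsl3 (0.24), Acsl5 (−0.38) and Acsbg1 (−0.39) are filled.

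*Acsbg1* (ENSMUSG00000032281, chromosome 9, 54512161 to 54569154 on the minus strand), the bubblegum synthetase of very long and long-chain fatty acids, and *Fabp7* (ENSMUSG00000019874, chromosome 10, 57660977 to 57664546 on the plus strand), the brain-type carrier of radial glia and astrocytes, are both known in the brain mainly from astrocytes. *Acsbg1* stood at 84.4, 103.2 and 108.2 CPM in control replicates 1 to 3 and at 61.4, 63.8 and 105.0 CPM after knockdown. Replicates 1 and 2 of the sh*Pla2g4e* group lay below all controls, and replicate 3 lay among them. Group means were 98.6 ± 12.5 and 76.7 ± 24.5 CPM (SD, n = 3 each), which edgeR fitted as a log2 fold change of −0.37 with a standard error of 0.16 (adjusted p = 0.154). Blocked by number, the log2 fold change was −0.39 with a standard error of 0.077 (edgeR, adjusted p = 4.51e-05). The log2 ratios within numbers 1, 2 and 3 were −0.46, −0.69 and −0.043. That standard error draws on the spread of many genes and does not measure the spread of these 3 ratios. Leaving out sh*Pla2g4e* replicate 3 moved the unblocked value to −0.66 (adjusted p = 2.25e-04), which is past the threshold. Without sh*Pla2g4e* replicate 1 it was −0.23 (adjusted p = 0.466) and without replicate 2 it was −0.25 (adjusted p = 0.411 in edgeR). Leaving out number 2 in both groups moved the blocked value to −0.25 (adjusted p = 0.0736). Within numbers 1, 2 and 3 the sh*Pla2g4e* library differed from its control by −27.3%, −38.2% and −2.96%, so that most of the difference lay in numbers 1 and 2.

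*Fabp7* stood at 49, 64.5 and 64.9 CPM in control replicates 1 to 3 and at 43.5, 49.1 and 81.0 CPM after knockdown. Replicate 3 of the sh*Pla2g4e* group was the highest of all 6 libraries and replicate 1 of that group the lowest. Group means were 59.5 ± 9.06 and 57.9 ± 20.2 CPM (SD, n = 3 each) and the log2 fold change −0.045 (confidence interval −0.41 to 0.32), with a sign that changed when scaling used library size alone (0.027). No direction can be given for *Fabp7* at this spread.

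Other markers of astrocytes are given beside both genes. Of 15 markers tested (among them *Gfap*, *Aqp4*, *Slc1a2* and *Slc1a3*), 11 had a lower and 4 a higher log2 fold change, with a median of −0.50. *Aqp4*, *Slc4a4*, *Gja1* and *Slc1a2* fell at an adjusted p of 0.01 in edgeR and none rose. Beside this, 6.49% of all genes passed, or 10.9% at a mean log2 CPM of 3 or more. With the replicate block 10 fell and *S100b* rose, beside 15.5% of all genes. No marker was at 0, and the lowest were *S100b* and *Gjb6*, with 1.70 and 1.83 CPM in shCtrl cultures. Their summed level was 3934, 4371 and 5126 CPM in control replicates 1 to 3 and 2758, 2488 and 4304 CPM after knockdown. It was therefore lower in the sh*Pla2g4e* library of every number. Replicate 3 was the highest in both groups, as it was for *Acsbg1* and, by a narrow margin in shCtrl, for *Fabp7*. *Fabp7* was the higher one in the sh*Pla2g4e* library of number 3, where the marker sum was the lower one. In bulk RNA, fewer astrocytes and less RNA of these genes per astrocyte cannot be told apart. The part of the astrocyte share in the values of *Acsbg1* and *Fabp7* was not tested. As a description, chosen after the values were seen, both were also set against the markers. *Acsbg1* had 21.1 to 23.6 CPM per 1000 CPM of astrocyte markers in shCtrl and 22.3 to 25.6 in sh*Pla2g4e* cultures, ranges that overlap. *Fabp7* had 12.5 to 14.8 CPM per 1000 CPM of astrocyte markers in shCtrl and 15.8 to 19.7 in sh*Pla2g4e* cultures, ranges that do not overlap. Both ratios to the sum were higher in the sh*Pla2g4e* library of each number, but the direction depended on the marker. Against each of the 15 markers alone, the ratio of *Acsbg1* was higher in all 3 numbers for 7 markers and lower in all 3 for 5, among them *Aldh1l1*. The ratio of *Fabp7* was higher in all 3 numbers for 10 markers and lower in all 3 for 3, *Aldh1l1*, *S100b* and *Agt*.

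**Figure D3:**
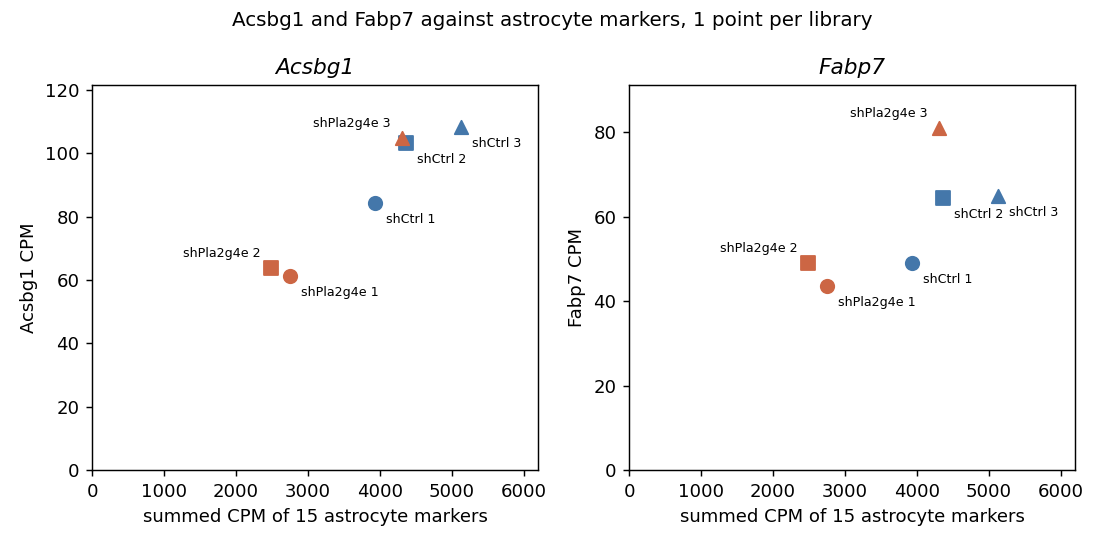
CPM of Acsbg1 (left) and Fabp7 (right) against the summed CPM of 15 astrocyte markers, 1 point per library, with shCtrl in blue and shPla2g4e in orange. Libraries shPla2g4e 1 and 2 sit at the lowest marker sums (2758 and 2488 CPM), and shPla2g4e 3 (4304 CPM) sits among the controls in the marker sum and above them in Fabp7.

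*Fabp3* (ENSMUSG00000028773, chromosome 4, 130202388 to 130209256 on the plus strand), the heart-type carrier that neurons also make, stood at 36.7, 38.9 and 34.1 CPM in control replicates 1 to 3 and at 30.0, 35.4 and 28.7 CPM after knockdown. Replicate 2 was the highest in both groups, and sh*Pla2g4e* replicate 2 lay among the controls. Group means were 36.6 ± 2.38 and 31.4 ± 3.54 CPM (SD, n = 3 each). The log2 fold change was −0.22 (confidence interval −0.44 to −0.0031, adjusted p = 0.187 in edgeR, and 0.0598 with the block). Its reads are less certain. Other annotated genes, the pseudogene *Fabp3-ps1* among them, hold 37.3% of all runs of 50 bases in the *Fabp3* transcript, on either strand, and 19.6% of its exon bases overlap genes on the other strand.

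*Fabp5* (ENSMUSG00000027533, chromosome 3, 10077608 to 10081667 on the plus strand), the epidermal-type carrier that is found in neurons and glia of the developing brain, stood at 81.2, 89.2 and 87.2 CPM in control replicates 1 to 3 and at 80.8, 80.8 and 71.5 CPM after knockdown. The groups did not overlap, but by only the small gap between shCtrl replicate 1 and sh*Pla2g4e* replicate 1. The log2 fold change was −0.14 (confidence interval −0.32 to 0.032, adjusted p = 0.303 in edgeR), −0.088 without sh*Pla2g4e* replicate 3 and −0.070 with library size alone. Other genes, among them *Gm6166*, *Gm14328* and *Fabp5l2*, hold 21.1% of all runs of 50 bases in the *Fabp5* transcript, and the counting command kept the default of featureCounts, which leaves out reads with several places in the genome.

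Between genes, levels can be set side by side only per length. Per kilobase of all annotated exons of a gene, *Acsl3* had the highest mean in shCtrl cultures (56.4 ± 3.23 RPKM), followed by *Fabp7* (47.6 ± 7.25), *Fabp3* (44.4 ± 2.89), *Acsl4* (29.7 ± 2.91), *Acsbg1* (27.4 ± 3.48), *Fabp5* (24.1 ± 1.18), *Acsl6* (13.9 ± 0.955), *Acsl5* (7.55 ± 0.681) and *Acsl1* (5.73 ± 0.566 RPKM, SD, n = 3 each). The libraries of *Fabp7* and *Fabp3*, of *Acsl4* and *Acsbg1*, and of *Acsbg1* and *Fabp5* overlapped in shCtrl cultures, so that the order of these neighbours lies within the spread of the libraries, although *Acsbg1* was above *Fabp5* in each of the 3. The order depends on the length used. *Acsl1* has 10483 exon bases in all and 3897 in its principal transcript, *Fabp5* 3567 and 987. Per kilobase of the principal transcript *Fabp5* came first (87.0 ± 4.26 RPKM), ahead of *Fabp7* (74.0 ± 11.3) and *Acsl3* (62.2 ± 3.56), and *Acsl5* came last (8.65 ± 0.781 RPKM). By this length the shCtrl libraries of *Fabp7* and *Acsl3* overlapped, as did those of *Acsbg1* and *Acsl4*. Under both lengths *Acsl3* was the highest of the synthetases, and *Acsl5*, *Acsl1* and *Acsl6* were the 3 lowest of the 9 genes.

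**Figure D4:**
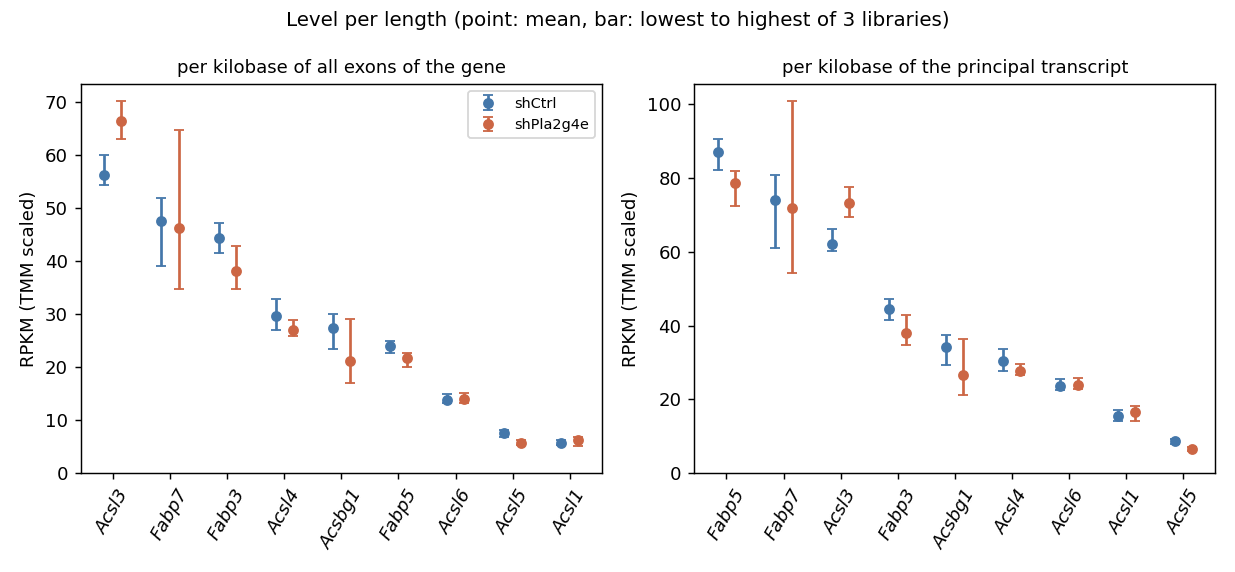
Level of each gene per kilobase (vertical axes, RPKM with TMM scaling), by all exons of the gene (left) and by the principal transcript (right), ordered by the shCtrl mean, with points for the mean and bars from the lowest to the highest of 3 libraries. Acsl3 leads on the left and Fabp5 on the right, and the bars of Fabp7 are the longest on both sides.

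Within the 6 synthetases, the summed level per kilobase of all exons was 140.6 ± 3.29 RPKM in shCtrl and 140.9 ± 9.99 RPKM in sh*Pla2g4e* cultures (SD, n = 3 each). *Acsl3* made up 39.25%, 39.4% and 41.6% of that sum in shCtrl replicates 1, 2 and 3 and 47.6%, 47.7% and 46.3% in sh*Pla2g4e* replicates 1, 2 and 3. *Acsbg1* made up 19.5 ± 2.23% and 14.96 ± 3.72%, and *Acsl5* 5.38 ± 0.592% and 4.12 ± 0.397%. *Acsl6* held 9.87 ± 0.445% and 9.99 ± 0.118%. The share of *Acsl3* was thus higher in each sh*Pla2g4e* library than in any control, and a share also moves with the other 5 genes. The 3 carriers summed to 116.1 ± 8.81 RPKM in shCtrl and 106.2 ± 12.9 RPKM in sh*Pla2g4e* cultures, with overlapping libraries.

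The other genes that make, bind, split or use acyl-CoA, and the other carriers of this kind, were listed by name in 6 lists, of which 76 genes were tested. At an adjusted p of 0.01, 5 of the 76 passed, beside the 6.49% of all genes tested. With the replicate block there were 10 down-regulated and 5 up-regulated, again beside 15.5% of all genes in either direction. Among 14 other acyl-CoA synthetases tested, 7 had a higher and 7 a lower value, and 2 passed, or 3 with the block, which added *Acss1* downward. *Slc27a4*, a fatty acid transport protein with acyl-CoA synthetase activity, fell from 124.3 ± 7.16 to 33.5 ± 1.06 CPM (SD, n = 3 each), or −1.89 on the log2 scale (edgeR, adjusted p = 2.02e-09). *Aacs*, which activates acetoacetate for lipid synthesis, fell from 108.9 ± 17.0 to 78.3 ± 7.42 CPM, or −0.48 on the log2 scale (edgeR, adjusted p = 0.00696, but up to 0.0355 when 1 library was left out).

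Thioesterases undo the work of the synthetases by splitting acyl-CoA into fatty acid and coenzyme A. Of 17 tested, 9 had a higher and 8 a lower value. *Acot7*, the main acyl-CoA thioesterase of neurons, fell from 209.2, 216.7 and 179.2 CPM in control replicates 1 to 3 to 108.5, 107.3 and 108.3 CPM after knockdown. Its log2 fold change was −0.90 with a standard error of 0.085 (edgeR, adjusted p = 5.50e-06), and it was the only thioesterase that passed without the block. With the block *Acot11* passed downward and *Acot13* and *Baat* upward as well. Of 25 acyltransferases that use acyl-CoA, 12 had a higher and 13 a lower value. Without the block 1 passed, and with it 7 did, *Lclat1*, *Gpam*, *Lpcat1*, *Mboat7* and *Cpt1a* downward and *Lpcat2* and *Dgat2* upward. *Lclat1*, which remodels cardiolipin and other phospholipids, fell from 61.3 ± 3.38 to 47.2 ± 3.46 CPM, or −0.38 on the log2 scale (edgeR, adjusted p = 0.00882, but up to 0.0595 when 1 library was left out). None of the 7 acyl-CoA-binding proteins and none of the 8 PPAR factors and partners passed the threshold or the same threshold with the block.

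**Figure D5:**
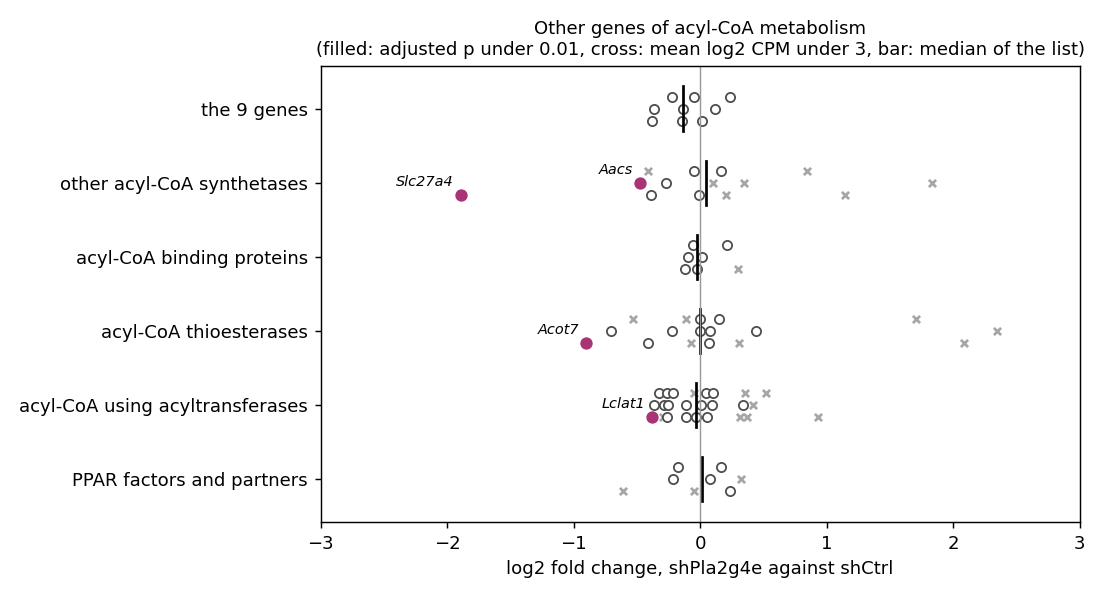
Log2 fold change (horizontal axis, shPla2g4e against shCtrl) of each tested gene of the 9 and of 5 lists of related genes, filled and named where the adjusted p was under 0.01, crosses for genes whose mean log2 CPM was under 3, bars for medians. The 9 genes lie between −0.38 and 0.24, closer to 0 than Slc27a4 (−1.89) and Acot7 (−0.90), and the crosses above 1 are genes of low counts.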

How the data were processed

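RNA-seq libraries of 6 primary neuronal cultures, 3 per group, were analysed, with groups taken from the treatment labels and replicate numbers from the titles. The authors aligned the reads with STAR (2.7.0d per the labels) and deposited raw counts per gene from featureCounts 1.6.0, without normalization, on GENCODE vM28 (GRCm39), with no strand or read pair option. The published methods give mm10 with GENCODE M18 instead. Symbols came from GENCODE vM21 by gene identifier for 52081 genes, and gene coordinates are those of the counts.

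Counts were normalized by TMM and tested with edgeR 4.0.16 (R 4.3.3) over genes that reached 6 reads in 1 or more libraries, with Benjamini-Hochberg adjustment over all genes. Standard errors came from the F statistic. limma 3.58.1 after voom (the study's test) and DESeq2 1.42.0 were alternatives, with other scalings, filters, a block and left-out libraries. The script was tested on simulated counts. Over 10908 genes at or above a mean log2 CPM of 3, deviations of libraries with the same number correlated at 0.39, 0.19 and 0.46, so the numbers were taken as pairs, from the titles and this check. No pair of libraries differed by less than sampling noise. Gene members and lists were chosen with earlier results of these data known. All 9 genes are named, of each list of related genes those past the threshold without the block, at most 3, except 1 that is not reported here, and of the markers those a result turns on. Genes called with the block alone were named after their values were seen.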

Additional observations from a re-analysis of the deposited data

How the results depend on the processing

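The count of 0 called among the 9 genes became 2 (*Acsl5* and *Acsbg1*) with no filter on reads, 3 with the replicate block and 1 at an adjusted p of 0.05, and 0 to 1 when a library was left out (1 without sh*Pla2g4e* replicate 3, *Acsbg1*). In fits added after the data were seen it was 1 without number 3 in both groups. With the block it was 3 in limma after voom, 3 with DESeq2 size factors, 2 in DESeq2, 2 with library size alone, 1 without number 1, 0 without number 2 and 3 without number 3. Over all genes, 1419 calls became 2349 with no filter, 3395 with the block, 2813 at an adjusted p of 0.05 and 695 to 1613 when a library was left out (695 without shCtrl replicate 2, 1613 without sh*Pla2g4e* replicate 3). They became 574, 444 and 1834 without numbers 1, 2 and 3. With the block they became 2391 without number 1, 1785 without number 2 and 3031 without number 3. The block also gave 3333 in limma after voom, 2141 in DESeq2, 3372 with library size alone and 3435 with DESeq2 size factors. Of the 1419, 61.7% were lower, against 53.2% with upper-quartile scaling and 43.4% with library size alone.

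The 5 calls among related genes became 3 with upper-quartile scaling, library size alone or at least 10 reads in every library, 13 with no filter, 8 in DESeq2, 15 with the block, 12 at an adjusted p of 0.05 and 3 to 9 when a library was left out (9 without sh*Pla2g4e* replicate 3). Added fits gave 3, 2 and 11 without numbers 1, 2 and 3, and with the block 10 without number 1, 6 without number 2, 15 without number 3, 14 in limma after voom, 11 in DESeq2, 12 with library size alone and 15 with DESeq2 size factors. The 4 astrocyte markers called became 8 with no filter, 1 in the robust fit, 11 with the block, 7 at an adjusted p of 0.05 and 2 to 9 when a library was left out (9 without sh*Pla2g4e* replicate 3). They became 2, 0 and 10 without numbers 1, 2 and 3, and with the block 9, 7 and 10 without these, 11 in limma after voom, 7 in DESeq2, 9 with library size alone and 11 with DESeq2 size factors.

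The sign changed for *Acsl6* (−0.037 to 0.076 when a library was left out) and for *Fabp7* (0.027 with library size alone, −0.36 to 0.13 when a library was left out, 0.0057 without number 1, 0.12 without number 2 and 0.083 with the block without number 2). The other 7 genes kept their direction in all 27 alternatives. Of these, the alternative at an adjusted p of 0.05 and the robust fit share their fold changes with the main fit, so their direction could not differ. With library size alone *Acsl1* was at 0.20, *Acsl4* at −0.058, *Acsl6* at 0.091 and *Fabp3* at −0.14. *Slc27a4* and *Acot7* passed in every alternative. The cause of these differences was not tested. With 3 libraries per group, the spread between libraries was larger than the counting error for all 9 genes.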
